A study of Mus musculus with 6 samples.

Results

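The miR-192, miR-194 and miR-215 family was examined through 6 annotated miRNAs, mmu-miR-192-5p, mmu-miR-192-3p, mmu-miR-194-5p, mmu-miR-194-2-3p, mmu-miR-194-1-3p and mmu-miR-215-5p, out of 2624 rows in the deposited table (1393 annotated miRNAs and 1231 predicted loci). They are the mature products of a pair of loci and were selected by name, after their values in the comparison of hα-syn(A53T) + Ang-(1-7) mice with hα-syn(A53T) mice had been seen. That comparison is therefore given for them as a description. No p-value is printed for a member, and member calls at an adjusted p under 0.05 are not read as support. The opposite arm of miR-215, miR-215-3p, has a RefSeq sequence but no row in the table, so no value was analysed for it.

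miRNAs are short RNAs that pair with messenger RNAs, mainly through bases 2 to 8 (the seed), and lower their stability or translation. Each hairpin precursor can yield a 5p and a 3p arm, of which 1 is usually kept as the guide and the other degraded. The family is best known as an abundant miRNA group of liver, gut and kidney epithelium. In human cells both loci are activated by p53, and in liver and gut by hepatocyte nuclear factors. miR-192-5p, miR-194-5p and miR-215-5p are the guide strands, whereas the 3p arms are usually scarce.

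The mature sequences, taken from RefSeq (GRCm38.p6) for all 6 members, are printed because the seed decides which miRNAs share targets and because the 3p arms are what tells the loci apart. Capitals mark the seed. The first pair of guides shares the seed UGACCUA.
mmu-miR-192-5p: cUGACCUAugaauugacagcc
mmu-miR-215-5p: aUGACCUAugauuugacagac
The next guide has a seed of its own and is encoded, with the same 22 bases, at both loci.
mmu-miR-194-5p: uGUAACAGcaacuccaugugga
The 3p arms of the miR-194 hairpins differ within the seed.
mmu-miR-194-2-3p: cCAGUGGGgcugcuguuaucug
mmu-miR-194-1-3p: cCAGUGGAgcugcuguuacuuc
The 3p arm of miR-192 completes the set.
mmu-miR-192-3p: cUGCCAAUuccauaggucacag

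With positions counted from 1 at the 5′ end, miR-192-5p and miR-215-5p (21 nt each) differ at 3 positions, C1A, A12U and C20A, all of them outside the seed. From miR-194-2-3p to miR-194-1-3p (22 nt each) there are 4 differences, G8A, U19C, C20U and G22C, and G8A falls on the last seed base. Among the 1174 annotated miRNAs of the table that matched a RefSeq sequence, no further miRNA carried the seed of miR-192-5p, miR-194-5p, miR-194-1-3p or miR-192-3p. The seed CAGUGGG of miR-194-2-3p was shared with miR-6926-5p, with 0 reads in the hα-syn(A53T) + Ang-(1-7) libraries and 4 in the hα-syn(A53T) libraries, and with miR-7055-5p, with 3 reads in the hα-syn(A53T) + Ang-(1-7) libraries and 0 in those of the hα-syn(A53T) group.

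The Mir192/Mir194-2 locus lies on chromosome 19 (GRCm38, plus strand). There, Mir194-2 spans 6264643 to 6264728 and Mir192 spans 6264844 to 6264932, with 115 bases between the hairpins. In the GENCODE vM21 annotation both are intergenic, 2307 and 2508 bases past the end of the protein-coding gene Atg2a, whose product takes part in autophagosome formation, and 4066 and 3862 bases from the long non-coding RNA gene Gm14963 on the other strand. Within Mir194-2 the mature miR-194-5p occupies 6264658 to 6264679 and miR-194-2-3p 6264694 to 6264715, and within Mir192 miR-192-5p occupies 6264857 to 6264877 and miR-192-3p 6264900 to 6264921.

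The Mir215/Mir194-1 locus lies on chromosome 1 (GRCm38, plus strand). Mir194-1 spans 185313319 to 185313385 and Mir215 spans 185313581 to 185313692, 195 bases apart. Both hairpins sit within an intron of Iars2, which encodes the mitochondrial isoleucyl-tRNA synthetase and is transcribed from the opposite strand. On the same strand they overlap the antisense RNA gene 2010103J01Rik, Mir194-1 in its intron and Mir215 in its exon. At this locus miR-194-5p occupies 185313325 to 185313346, miR-194-1-3p 185313360 to 185313381 and miR-215-5p 185313610 to 185313630. A read of miR-194-5p can thus come from either locus, whereas the other members each belong to 1.

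Small RNA of the right SN, the midbrain region that loses dopaminergic neurons in Parkinson's disease, was sequenced in 3 libraries of the hα-syn(A53T) + Ang-(1-7) group and 3 of the hα-syn(A53T) group. The hα-syn(A53T) + Ang-(1-7) mice were infused above the SN with Ang-(1-7), a heptapeptide ligand of the Mas receptor, for 4 weeks at an hourly dose of 1.1 nmol in a volume of 0.25 μL. The hα-syn(A53T) mice were infused with aCSF at the same rate. Both groups overexpressed human α-syn with the A53T change, by the methods after AAV injection into the right SNpc of male C57BL/6J mice, while the labels speak of an overexpressing strain. The sources do not say if each library holds the RNA of 1 mouse or of a pool, so the spread between libraries may be technical, and control mice without hα-syn(A53T) were not analysed here.

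Libraries held 15522980 to 16571363 reads over annotated miRNAs in the hα-syn(A53T) + Ang-(1-7) group and 14796519 to 17088611 in the hα-syn(A53T) group, with 1067 to 1132 annotated miRNAs detected per library. Replicates differed far beyond sampling noise (a chi-square 292 to 1804 times its degrees of freedom) and were each counted once. Replicate 3 stood furthest off in both groups. With Ang-(1-7) the multiple was 598 between replicates 1 and 2, and 1223 and 1240 for the pairs with replicate 3. In the hα-syn(A53T) group it was 292 between replicates 1 and 2, and 1576 and 1804 for the pairs with replicate 3. The reason was not tested. Of 1065 annotated miRNAs tested with limma, 59 were higher and 43 lower in the hα-syn(A53T) + Ang-(1-7) group at an adjusted p under 0.05. A normalized count below is the number of reads corrected by a size factor for the library, as deposited by the authors, and a fold change is on the log2(normalized count + 1) scale.

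Both abundant guides, miR-192-5p and miR-194-5p, were lower after Ang-(1-7). They had less than 0.5 of their hα-syn(A53T) level, the scarce 3p arm miR-194-2-3p was lower by a like factor, and miR-215-5p from the other locus differed by less than its spread between libraries. The remaining arms, miR-192-3p and miR-194-1-3p, were near the detection limit. In bulk tissue, fewer cells of an expressing type and less RNA per cell cannot be told apart.

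miR-192-5p was the most abundant member, at rank 95 of the 1393 annotated miRNAs by mean level. Its normalized counts were 9021, 8379 and 8907 in hα-syn(A53T) + Ang-(1-7) replicates 1, 2 and 3, against 19237, 20862 and 15849 in hα-syn(A53T) replicates 1, 2 and 3. All libraries with Ang-(1-7) lay in a narrow band below every hα-syn(A53T) library, and the lowest of these, replicate 3, was still 1.76-fold above the highest with Ang-(1-7). The means were 8769 ± 343 in the hα-syn(A53T) + Ang-(1-7) group and 18649 ± 2558 in the hα-syn(A53T) group (SD, n = 3 each), which is 2.13-fold lower with Ang-(1-7) (log2 fold change −1.08, SE 0.19). These counts rest on 7604 to 9818 reads per library with Ang-(1-7) and 15664 to 22514 without, or 0.0551% and 0.118% of the annotated reads on average.

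miR-194-5p, the guide made by both loci, stood at rank 131. It had normalized counts of 3270, 4019 and 3549 in hα-syn(A53T) + Ang-(1-7) replicates 1 to 3 and 11749, 10970 and 7417 in hα-syn(A53T) replicates 1 to 3. Again no library of one group reached the range of the other, hα-syn(A53T) replicate 3 was the lowest of its group, and it was 1.85-fold above the highest library with Ang-(1-7). Group means were 3613 ± 378 with Ang-(1-7) and 10045 ± 2310 without (SD, n = 3 each), a level 2.78-fold lower with Ang-(1-7) (log2 fold change −1.45, SE 0.23).

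The 3p arm that only Mir194-2 encodes gave few reads, with the groups apart as for the guides. For miR-194-2-3p the normalized counts were 18.98, 24.2 and 15.4 in hα-syn(A53T) + Ang-(1-7) replicates 1 to 3 against 49.2, 52.8 and 37.4 in hα-syn(A53T) replicates 1 to 3, from 19, 22 and 17 reads against 48, 57 and 37 reads. Every library with Ang-(1-7) was below every library without it. The means of 19.5 ± 4.44 with Ang-(1-7) and 46.5 ± 8.04 without (SD, n = 3 each) correspond to a 2.38-fold lower level with Ang-(1-7) (log2 fold change −1.22, SE 0.33). Counting error alone places the ratio of the groups, 0.413, between 0.299 and 0.564 (exact 95% interval, which covers counting error only, as do the other intervals on reads given here).

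miR-215-5p, the guide strand of the other locus and the seed partner of miR-192-5p, had normalized counts of 31.96, 44.1 and 31.8 in hα-syn(A53T) + Ang-(1-7) replicates 1 to 3, against 31.8, 31.5 and 51.6 in hα-syn(A53T) replicates 1 to 3. The groups overlapped entirely, since 2 libraries with Ang-(1-7) and 2 without it were near 32 and the highest library, hα-syn(A53T) replicate 3, was the one in which miR-192-5p and miR-194-5p were lowest for that group. Means were 35.9 ± 7.05 with Ang-(1-7) and 38.3 ± 11.5 without (SD, n = 3 each), with a log2 fold change of −0.07 (SE 0.33, 95% interval −0.81 to 0.68). The 107 and 116 reads of the 2 groups give a ratio of 0.932 (exact 95% interval 0.710 to 1.22). On the scale of the spread between libraries, the 95% interval of the log2 fold change overlaps that of miR-194-2-3p (−1.95 to −0.48), and the difference between these members was not tested. The interval of the log2 fold change rests on the spread between 3 libraries per group, and that of the reads on counting error. A change within these limits cannot be told from none here.

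**Figure D1:**
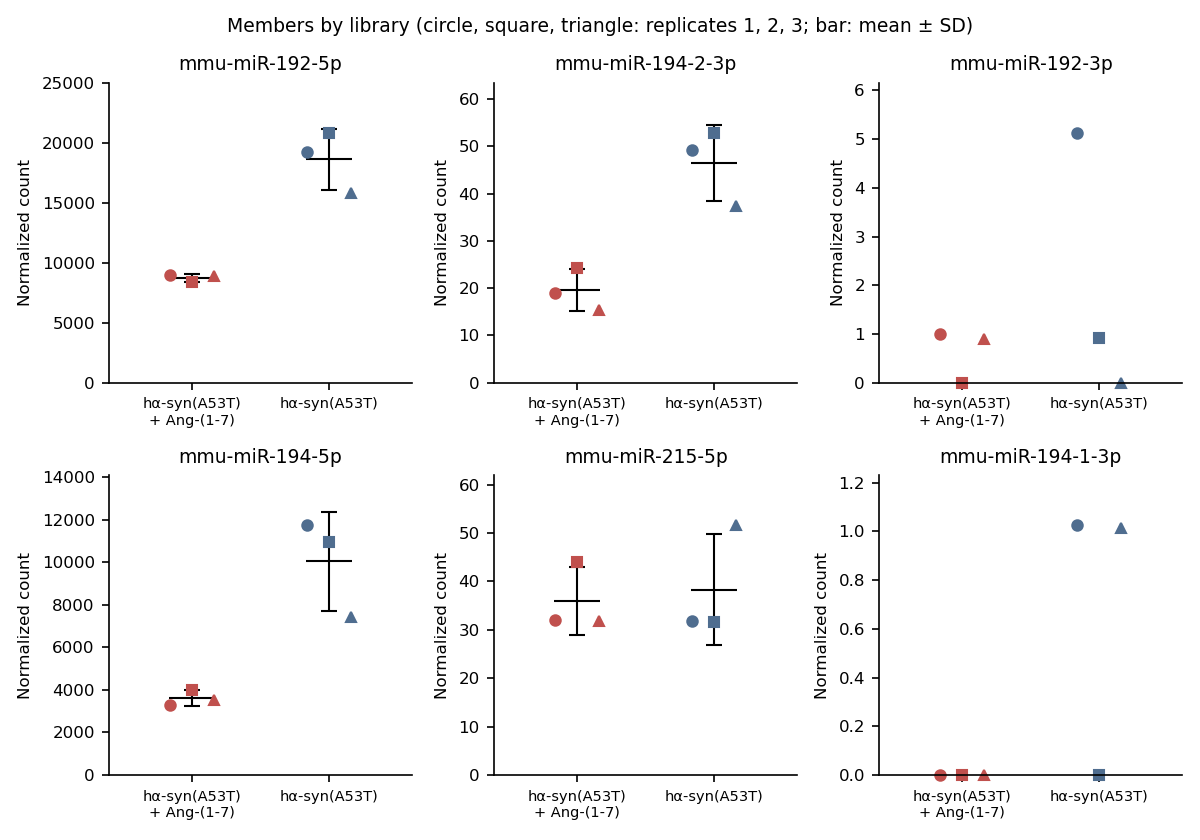
Normalized counts of the 6 members (vertical axes, a scale for each panel) in 3 libraries of the hα-syn(A53T) + Ang-(1-7) group (red, left) and 3 of the hα-syn(A53T) group (blue, right), with mean ± SD for members that could be tested. For miR-192-5p, miR-194-5p and miR-194-2-3p all red points lie below all blue points, for miR-215-5p the groups overlap, and miR-192-3p and miR-194-1-3p are near 0.

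Of the 6 members, 4 had a normalized count of at least 1 in at least 3 libraries and could be tested. The other 2, miR-192-3p and miR-194-1-3p, were left out by that filter. At an adjusted p under 0.05, 3 members (miR-192-5p, miR-194-5p and miR-194-2-3p) were lower with Ang-(1-7), where 4.04% of all tested annotated miRNAs were. The same 3 had every library with Ang-(1-7) below every hα-syn(A53T) library, which held for 14.0% of all tested miRNAs. Because the members were chosen with these values known, nothing is read from these counts. The median log2 fold change of the 4 tested members was −1.15, and that of all 1065 was −0.04. miR-194-5p passed in each of the alternative fits, whereas miR-192-5p lost its call when hα-syn(A53T) replicate 1 or 2 was left out (its log2 fold change was −1.19 to −0.99 over the fits that left out 1 library). miR-194-2-3p lost its call in the fits without hα-syn(A53T) + Ang-(1-7) replicate 1 or 3 or without any 1 hα-syn(A53T) library, where its log2 fold change was between −1.38 and −1.07 over all libraries left out.

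**Figure D2:**
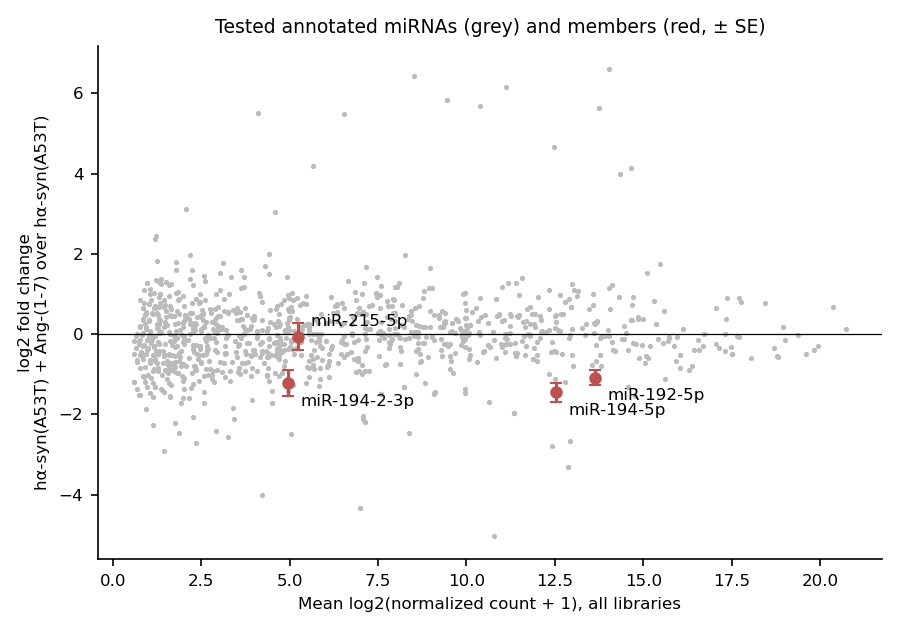
Log2 fold change of hα-syn(A53T) + Ang-(1-7) over hα-syn(A53T) (vertical axis) against mean log2(normalized count + 1) over the 6 libraries (horizontal axis) for the 1065 tested annotated miRNAs in grey, with the 4 tested members in red ± SE. miR-192-5p, miR-194-5p and miR-194-2-3p sit between −1.08 and −1.45, and miR-215-5p sits at −0.07.

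The 3p arms gave a view of each locus, because the guide miR-194-5p cannot be assigned. miR-194-2-3p had 58 reads in the hα-syn(A53T) + Ang-(1-7) libraries and 142 in the hα-syn(A53T) libraries. Its counterpart miR-194-1-3p had 0 reads with Ang-(1-7) in any library and 2 without, 1 each in hα-syn(A53T) replicates 1 and 3. The Mir194-2 hairpin thus gave nearly all reads of this arm in both groups.

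With Ang-(1-7), miR-194-2-3p took 58 of 58 reads of the pair, or 100% (exact 95% interval 93.8% to 100%). Taking 3 reads over the group as the floor for a count of 0 gives 19.3-fold more than miR-194-1-3p. That value is set by the floor and is not a limit of the interval. In the hα-syn(A53T) group miR-194-2-3p took 142 of 144, or 98.6% (95.1% to 99.8%), which is 71.0-fold more (19.3 to 592). Both groups together held 200 reads of miR-194-2-3p and 2 of miR-194-1-3p, a 100-fold excess (27.3 to 831).

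The excess of the Mir194-2 arm was present in every library. The log2 ratio of miR-194-2-3p over miR-194-1-3p, with a pseudocount of 1, was 4.32, 4.66 and 4.04 in hα-syn(A53T) + Ang-(1-7) replicates 1 to 3 and 4.63, 5.75 and 4.26 in hα-syn(A53T) replicates 1 to 3. Its mean was 4.61 (SD 0.61) over the 6 libraries. No p is given, since miR-194-1-3p had at most 1 read in any library and the ratio could then only be above 0. Its size is largely set by the pseudocount, with a mean of 2.73 for a pseudocount of 5 and 7.06 for 0.1. Read counts of different sequences were not calibrated against each other, and how the authors' counting treated reads with mismatches is not given in the sources used here.

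**Figure D3:**
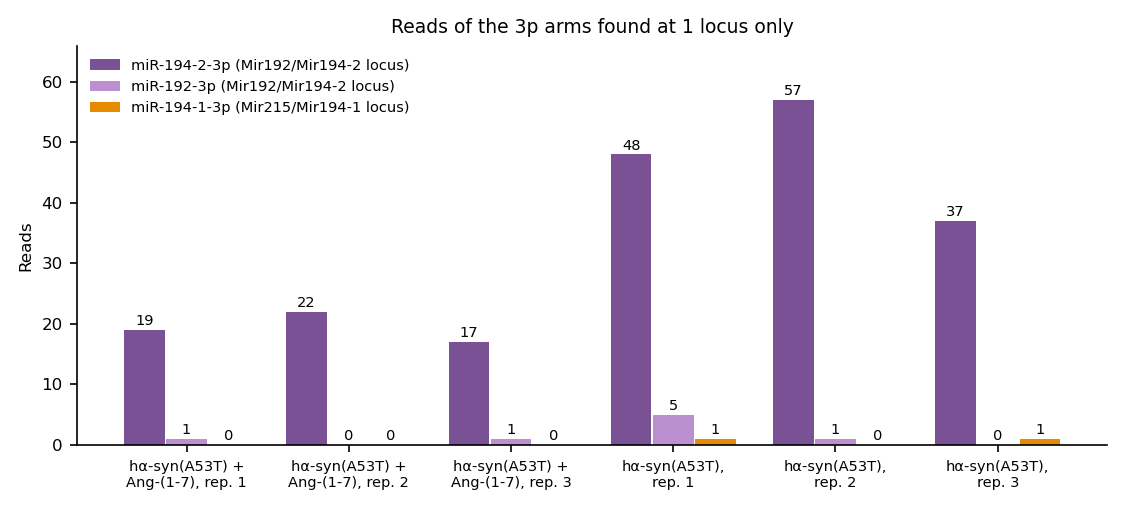
Reads (vertical axis, from 0) of the 3p arms that occur at 1 locus only, for each library of the hα-syn(A53T) + Ang-(1-7) group (left) and of the hα-syn(A53T) group (right). miR-194-2-3p has 17 to 22 reads with Ang-(1-7) and 37 to 57 without, miR-192-3p has 0 or 1 except for 5 in hα-syn(A53T) replicate 1, and miR-194-1-3p never exceeds 1.

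Whether the loci differed in their response could not be read from the 3p arms. On the log2 scale with a pseudocount of 1, miR-194-2-3p over miR-194-1-3p averaged 4.34 in the hα-syn(A53T) + Ang-(1-7) group and 4.88 in the hα-syn(A53T) group, a difference of −0.54 with a pooled SD of 0.59. With a pseudocount of 0.1 the difference was 1.07, so its sign turned on how a count of 0 was treated. For miR-192-3p over miR-194-1-3p the averages were 0.64 with Ang-(1-7) and 0.51 without, a difference of 0.13 (pooled SD 1.04), which was 1.56 with a pseudocount of 0.1, −0.07 with 5 and −0.63 to 0.68 with 1 library left out. The ratio of miR-194-1-3p between the groups has an upper exact 95% limit of 5.38, which spans the change of miR-194-2-3p and also no change.

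The 3p arm of miR-192 was almost never seen. miR-192-3p had 1, 0 and 1 reads in hα-syn(A53T) + Ang-(1-7) replicates 1 to 3 and 5, 1 and 0 reads in hα-syn(A53T) replicates 1 to 3. Most of its reads thus came from a single hα-syn(A53T) library, and the ratio of the groups, 0.337, has an exact 95% interval of 0.0333 to 1.88.

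In each of these hairpins the 5p arm far exceeded the 3p arm. miR-192-5p had 26453 reads where miR-192-3p had 2 in the hα-syn(A53T) + Ang-(1-7) group, and 56943 reads where it had 6 in the hα-syn(A53T) group. Over the 6 libraries the mean log2 ratio of the 5p over the 3p arm was 12.72 (SD 0.89) with a pseudocount of 1, 11.02 with 5 and 14.32 with 0.1, and no p is given for a ratio over so few reads. For miR-194, the 5p arm had 187-fold the reads of miR-194-2-3p with Ang-(1-7) (144 to 246) and 216-fold without (183 to 256), although the 5p count may hold reads of Mir194-1 too.

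Ratios within a library put the members on 1 scale and do not depend on its size factor. miR-194-2-3p was 0.580%, 0.603% and 0.435% of miR-194-5p in hα-syn(A53T) + Ang-(1-7) replicates 1 to 3, against 0.419%, 0.482% and 0.505% in hα-syn(A53T) replicates 1 to 3. The proportion of the 2 arms stayed between 0.419% and 0.603% over all libraries, with means of 0.539% ± 0.0915 with Ang-(1-7) and 0.468% ± 0.0445 without (SD, n = 3 each) and overlapping ranges.

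miR-194-5p was 36.3%, 48.0% and 39.9% of miR-192-5p in hα-syn(A53T) + Ang-(1-7) replicates 1 to 3 and 61.1%, 52.6% and 46.8% in hα-syn(A53T) replicates 1 to 3. The highest library with Ang-(1-7) lay above the lowest without it, and the means of 41.4% ± 5.998 with Ang-(1-7) and 53.5% ± 7.18 without (SD, n = 3 each) differed by less than the sum of these SDs.

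miR-215-5p was a minute fraction of its seed partner in each group. It was 0.354%, 0.526% and 0.357% of miR-192-5p in hα-syn(A53T) + Ang-(1-7) replicates 1 to 3, against 0.165%, 0.151% and 0.326% in hα-syn(A53T) replicates 1 to 3. These ranges did not overlap, but hα-syn(A53T) replicate 3 was close to the lowest library with Ang-(1-7), and the means were 0.412% ± 0.0985 with Ang-(1-7) and 0.214% ± 0.0970 without (SD, n = 3 each). The numerator rests on 31 to 51 reads per library and overlapped between the groups. This ratio thus restates the lower miR-192-5p, known when the members were chosen, and nothing more is read from it. Adding the pair gives the pool of miRNAs with the seed UGACCUA, with summed normalized counts of 9053, 8423 and 8939 in hα-syn(A53T) + Ang-(1-7) replicates 1 to 3 and 19269, 20894 and 15901 in hα-syn(A53T) replicates 1 to 3. miR-215-5p made up 0.353% to 0.523% of that pool with Ang-(1-7) and 0.151% to 0.325% without, so that the pool followed miR-192-5p.

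**Figure D4:**
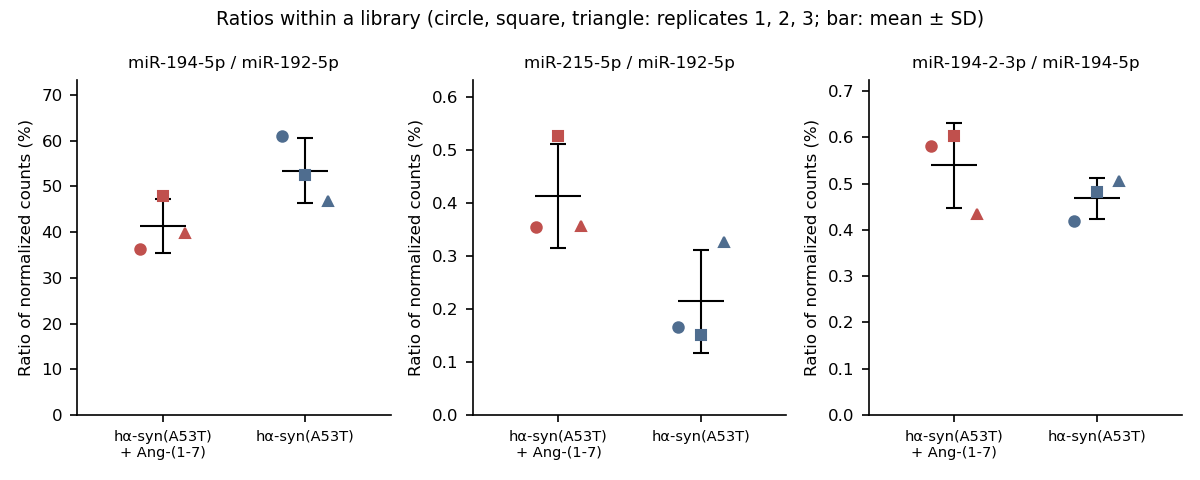
Ratio of 2 members' normalized counts within each library in percent (vertical axes from 0, a scale for each panel), with the hα-syn(A53T) + Ang-(1-7) group in red on the left, the hα-syn(A53T) group in blue on the right and bars for mean ± SD. The ranges overlap for miR-194-5p over miR-192-5p and for miR-194-2-3p over miR-194-5p, and they do not for miR-215-5p over miR-192-5p, where blue replicate 3 (0.326%) is closest to the red points. That last ratio restates the lower miR-192-5p, since miR-215-5p itself overlapped between the groups.

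The profile over the 6 libraries was compared with that of 696 annotated miRNAs with a mean normalized count of at least 10, by the root mean square difference of log2 values after each profile was centred on its mean. This measure follows the difference between the groups as well as the libraries within a group, and it is a description. Nearest to miR-192-5p were miR-6911-3p (0.07 log2 units), miR-26a-2-3p (0.16), miR-21b (0.17), miR-3087-3p (0.18), miR-448-5p (0.18) and miR-484 (0.19). Its locus partners followed at rank 12 for miR-194-2-3p (0.22) and rank 20 for miR-194-5p (0.25), whereas its seed partner miR-215-5p was at rank 319 (0.64).

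For miR-194-5p the nearest profiles were those of miR-133a-3p (0.15), a muscle miRNA, miR-194-2-3p (0.20), miR-497a-5p (0.22), miR-192-5p (0.25), miR-484 (0.25) and miR-195a-3p (0.26). Here miR-194-2-3p and miR-192-5p, from the Mir192/Mir194-2 locus, ranked within the nearest 4, and miR-215-5p was at rank 321 (0.82). miR-192-3p had a mean below 10 and was not compared. These ranks follow the group difference known when the members were chosen, so nothing about the loci is read from them.

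p53 is a known activator of both loci in human cells, so other miRNAs linked to it were read beside the members. Of 9 named, 8 were listed and tested. With limma 1 fell (miR-34a-5p), 0 rose and 7 did not pass, with a median log2 fold change of −0.03, against −0.04 over all tested miRNAs. miR-34a-5p, a direct p53 target, had normalized counts of 3042, 5206 and 3124 in hα-syn(A53T) + Ang-(1-7) replicates 1 to 3 and 7933, 8027 and 6198 in hα-syn(A53T) replicates 1 to 3 (log2 fold change −0.999, SE 0.25, limma adjusted p = 0.03858). Every library with Ang-(1-7) lay below every library without it, as held for 14.0% of all tested miRNAs. miR-143-3p, the most abundant of the list, had a log2 fold change of −0.08 (limma adjusted p = 0.886) and miR-34c-5p one of 0.10 (adjusted p = 0.83). The values were −0.78 for miR-16-5p (adjusted p = 0.1099) and 0.02 for miR-107-3p (adjusted p = 0.9788).

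Markers of other tissues and cells that a dissected SN could carry were also read. Liver is the tissue richest in miR-122-5p. That miRNA had normalized counts of 214, 126 and 355 in hα-syn(A53T) + Ang-(1-7) replicates 1 to 3 and 166, 172 and 173 in hα-syn(A53T) replicates 1 to 3, while miR-122-3p and miR-802-3p were at 0 in every library except hα-syn(A53T) replicate 1. Of the 4 liver miRNAs, 2 could be tested and 0 passed with limma or with voom (1 at an unadjusted p under 0.05). Their summed count was 131 to 358 with Ang-(1-7) and 169 to 174 without, so that the range with Ang-(1-7) enclosed the range without it.

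The epithelial list moved the other way. Of its 9 miRNAs, 5 rose with Ang-(1-7) and 0 fell in limma (miR-200a-3p, miR-200b-3p, miR-200c-3p, miR-141-3p and miR-429-3p, the miR-200 family), and the summed count was 169800 to 483100 with Ang-(1-7) and 6096 to 19030 without. miR-203-3p, miR-205-5p, miR-31-5p and miR-375-3p did not pass.

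Some miRNAs of the muscle, choroid plexus and red blood cell lists were lower with Ang-(1-7), and only in the muscle list did all fall. All 4 of the muscle list fell, with a summed count of 14940 to 21830 with Ang-(1-7) and 42090 to 86350 without. Of the 6 of choroid plexus and ciliated epithelium 2 fell, miR-204-5p and miR-211-5p, and 4 did not pass, with log2 fold changes of 0.06 to 0.55 (miR-449c-5p and miR-449a-5p at the ends). Of these 4, miR-34b-5p and miR-34c-5p also belong to the p53-linked list and are counted in both. The median of the choroid plexus list was 0.08. Its sum, which rests mostly on miR-204-5p in its difference between the groups, was 36620 to 38510 with Ang-(1-7) and 47410 to 67240 without. miR-204-5p, abundant in choroid plexus epithelium, had 21810, 11600 and 14270 in hα-syn(A53T) + Ang-(1-7) replicates 1 to 3 and 46560, 47780 and 24990 in hα-syn(A53T) replicates 1 to 3 (log2 fold change −1.31, SE 0.31, limma adjusted p = 0.03259). Of the 4 red blood cell miRNAs 1 fell, miR-486a-5p, and 3 did not pass, with a list median log2 fold change of 0.22. The sum, which rests mostly on miR-486a-5p, was 1573 to 1808 with Ang-(1-7) and 3617 to 6903 without. miR-451a, which defines red blood cells, had 145, 450 and 367 in hα-syn(A53T) + Ang-(1-7) replicates 1 to 3 and 155, 162 and 167 in hα-syn(A53T) replicates 1 to 3 (log2 fold change 0.83, limma adjusted p = 0.2397). Their part in the result for the members was not tested.

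Markers of the dissection and of the SN's own cells gave mixed values. In the Hox list, which marks tissue caudal to the midbrain, 1 of 4 fell (miR-196a-5p), and the sum was 1373 to 31730 with Ang-(1-7) and 12670 to 74600 without. miR-196a-5p had a normalized count of 0 in every library with Ang-(1-7) and 4.10, 9.27 and 7.08 in hα-syn(A53T) replicates 1 to 3. It met the filter through the hα-syn(A53T) group alone, and its call rests on few reads. In this list 3 of 4 miRNAs had an unadjusted p under 0.05, and voom called 1. miR-10a-5p had a log2 fold change of −2.78 (limma adjusted p = 0.08496) and miR-10b-5p one of −3.31 (adjusted p = 0.132). miR-10b-5p, the most abundant of the list, had 1118, 577 and 21340 in hα-syn(A53T) + Ang-(1-7) replicates 1 to 3 and 6887, 48660 and 39970 in hα-syn(A53T) replicates 1 to 3, with ranges that overlap. For endothelium 0 of 2 and for leukocytes and microglia 0 of 6 passed in limma and in voom, with 0 at an unadjusted p under 0.05 in each list. Of 4 oligodendrocyte miRNAs 1 fell in limma (miR-338-5p) and 1 in voom, all 4 had a lower mean with Ang-(1-7) and an unadjusted p under 0.05, the median log2 fold change was −0.73, and the sum was 35890 to 66080 with Ang-(1-7) and 60730 to 168400 without. Among 4 neuronal miRNAs 1 rose (miR-137-3p) and 1 fell (miR-124-3p) in limma, 3 had an unadjusted p under 0.05, voom called 3, and the sum was 2960000 to 4038000 with Ang-(1-7) and 2699000 to 3017000 without. The part of these in the result for the members was not tested either.

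**Figure D5:**
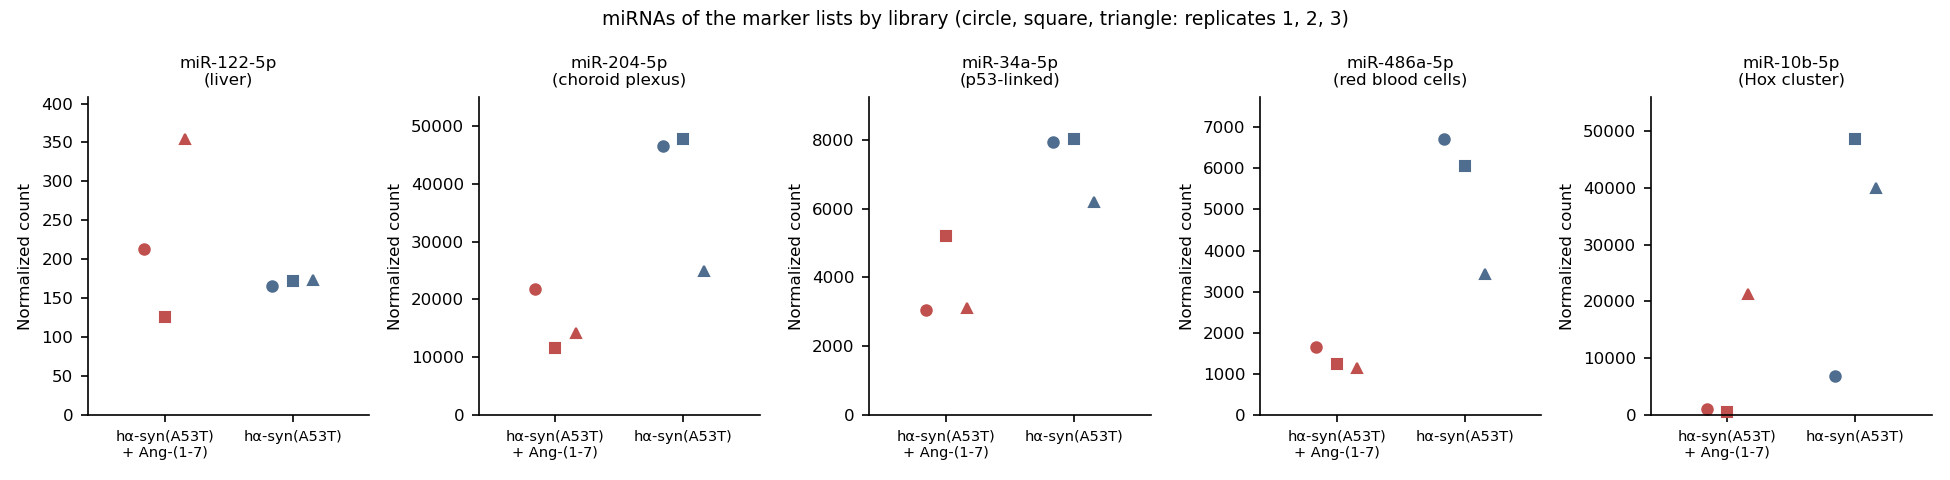
Normalized counts (vertical axes from 0, a scale for each panel) of 1 miRNA from each of 5 lists, with the hα-syn(A53T) + Ang-(1-7) group in red on the left and the hα-syn(A53T) group in blue on the right. miR-204-5p, miR-34a-5p and miR-486a-5p lie lower in every red library, as did 14.0% of all tested miRNAs, while miR-122-5p and miR-10b-5p overlap between the groups. A panel does not stand for its list. Of the choroid plexus, p53-linked and red blood cell lists, 4 of 6, 7 of 8 and 3 of 4 tested miRNAs did not pass. miR-34b-5p and miR-34c-5p are counted in both the choroid plexus and the p53-linked list.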

How the data were processed

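Small RNA libraries of the right SN were compared, 3 with Ang-(1-7) and 3 without, all from hα-syn(A53T) mice. The methods and notes state that the authors aligned reads with Bowtie 1.2.3 (mm9) and normalized them with DESeq2 1.10.1. The sources used here do not give the trimming, miRBase release or counting rules. The deposited signal values are normalized counts, read counts divided by size factors, which differ between annotated miRNAs and predicted loci. Annotated values were whole multiples of 1 read (tolerance 1e-06), which gave the reads. The authors' own fold changes, p-values and call columns were not used.

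Annotated miRNAs that reached a value of 1 in 3 or more libraries were fitted with limma 3.58.1 (R 4.3.3, trend) on log2(value + 1), adjusted by Benjamini-Hochberg over 1065. The fit was tested on simulated data in which all miRNAs had the same set spread and only the more abundant ones changed. That does not cover the spread between the real libraries or scarce miRNAs such as miR-194-2-3p and miR-215-5p. The planned sign-flip tests of levels within libraries are not reported, since ratios over 0 or 1 read could only be positive. Members and lists were chosen with earlier results of these data known. Named were the 6 members, seed sharers, the 6 nearest profiles of miR-192-5p and of miR-194-5p, and at most 4 miRNAs per list, those highest in mean level. Other list miRNAs named (the rest that passed or did not pass in their list, miR-122-3p, miR-802-3p) were chosen after their values were seen. Alternatives were pseudocounts, filters, scalings, the replicate block, voom (added after seeing the data) and each library left out. GRCm38 differs from that build and supplied sequences and annotation alone. Python 3.11.15, pandas 2.3.3, numpy 2.4.6, scipy 1.17.1 and matplotlib 3.10.9 were used.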

Additional observations from a re-analysis of the deposited data

How the results depend on the processing

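Leaving out 1 library changed the annotated miRNAs passing with limma, 102 of 1065 in all, to between 27 and 111, and those lower, 43 in all, to between 8 and 49. The counts passing were 46 without hα-syn(A53T) + Ang-(1-7) replicate 1, 53 without its replicate 2 and 111 without its replicate 3. For the hα-syn(A53T) group they were 33 without replicate 1, 27 without replicate 2 and 85 without replicate 3. Of the members, 3 passed in all and between 1 and 3 with a library left out. Over the other settings 81 (pseudocount 0.1) to 112 passed, and 2 or 3 members. miR-194-2-3p did not pass with a pseudocount of 0.1, no filter, quantile normalization or the block. Upper-quartile scaling moved the median log2 fold change of all miRNAs to −0.16, with 44 higher and 47 lower, against 59 and 43. Log2 fold changes ranged from −1.31 to −0.99 for miR-192-5p, −1.66 to −1.33 for miR-194-5p, −1.38 to −1.07 for miR-194-2-3p and −0.22 to 0.16 for miR-215-5p over all settings in which each was tested (the last 2 were not under the stricter filter).

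With the replicate block 112 passed, 2 members among them. Same-numbered libraries deviated together with r of 0.123, −0.087 and 0.177, so the numbers were not taken as pairs. Replicate 3 was still the library furthest from the others in each group, and whether its number marks a batch was not tested.

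With 1 library left out, the locus difference in level was 4.38 to 4.72 and the arm difference 12.48 to 12.94, both positive. With pseudocounts of 5 and 0.1 they were 2.73 and 7.06, and 11.02 and 14.32. The locus difference in log2 fold change was −0.54, between −0.85 and −0.11 with a library left out, and 1.07 with a pseudocount of 0.1 (for miR-192-3p 0.13, and 1.56 with 0.1). The planned edgeR, DESeq2 and voom-TMM fits, meant for deposited counts, were not run. voom on the recovered reads of annotated miRNAs, chosen after seeing the data, called 102. The low read numbers of the 3p arms limit what can be seen at this depth, and for miR-215-5p the spread between libraries does so as well.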
